A study of Mus musculus with 14 samples.

Results

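The genes described here encode receptors for dopamine and noradrenaline in mouse anterior cingulate cortex: Drd1, Drd5, Drd2, Adra1a, Adra1b, Adra1d, Adra2a, Adra2c and Adrb1. They are the 9 rows, of 53465 genes in the deposited count tables, whose Ensembl identifiers carry these symbols in the GRCm38 annotation. Their names fix the membership, with no threshold on counts, but the set was proposed with earlier results of these data known. The bulk RNA sequencing libraries fall into 4 groups, namely AKR/J mice (AKR) labelled OFL (3 libraries), C57BL/6NJ mice (B6N) labelled OFL (3 libraries), naive AKR mice (4 libraries) and naive B6N mice (4 libraries). The series' design text gives OFL as the state after observational fear conditioning, in which a mouse watches another receive shocks. No transgene, drug or deletion is named in the labels, and age, sex and whether replicate libraries stem from different animals are not given in the sources used here. The p-values below therefore reflect how much replicate libraries varied, and that variation could be purely technical.

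Dopamine and noradrenaline reach the cingulate cortex mainly by axons from the ventral midbrain and the locus coeruleus, and act there on G protein-coupled receptors. The D1-class receptors, encoded by Drd1 and Drd5, and the beta receptors raise cAMP through stimulatory G proteins. The D2-class receptors and the alpha2 receptors lower cAMP through inhibitory G proteins, and the alpha1 receptors act through Gq and phospholipase C. Cortical Drd1 and Drd5 are found in pyramidal neurons and interneurons, and Adra2a is known both as an autoreceptor of noradrenergic axons and as a receptor on cortical cells.

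Total counts per library were 13487311 to 14396289 in AKR OFL, 14063573 to 14526253 in B6N OFL, 19073921 to 23782061 in naive AKR and 20583264 to 25780227 in naive B6N. Each strain's OFL libraries also differed from its naive ones in the kinds of RNA they held: 139 tested small nucleolar RNA genes had median log2 differences of 4.99 in AKR and 5.02 in B6N, while the median of protein-coding genes was -0.15 in both. Markers of cortical upper layers, deep layers, interneurons and glia were detected in all 14 libraries. All 10 striatal projection neuron markers were detected as well, with summed levels of 236 to 246 CPM in AKR OFL, 227 to 240 in B6N OFL, 225 to 248 in naive AKR and 268 to 296 in naive B6N. CPM here is a count scaled to its library's size by TMM over the 14 libraries.

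The dopamine receptors included the one gene of the 9 with a strain difference of more than 2-fold, Drd5, and their upstream sequences are shown for that reason. Drd5 lies at chr5:38319367-38322518 on the plus strand (ENSMUSG00000039358, GRCm38) and has a single annotated exon. Drd1 lies at chr13:54051183-54055705 on the minus strand (ENSMUSG00000021478) with 3 merged exon blocks, and Drd2 at chr9:49340627-49408177 on the plus strand (ENSMUSG00000032259) with 8. The sequences below, from RefSeq promoter windows of build GRCm38.p6, are written in the direction of transcription and end before both the RefSeq start and the GENCODE gene start. They are chr5:38319259-38319366 (plus strand) for Drd5, chr13:54055706-54055908 (minus strand) for Drd1 and chr9:49340153-49340402 (plus strand) for Drd2, and capitals mark the GC box GGGCGG or its reverse complement CCGCCC.
Drd5: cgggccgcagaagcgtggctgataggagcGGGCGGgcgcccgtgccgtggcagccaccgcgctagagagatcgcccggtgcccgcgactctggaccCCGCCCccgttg
Drd1: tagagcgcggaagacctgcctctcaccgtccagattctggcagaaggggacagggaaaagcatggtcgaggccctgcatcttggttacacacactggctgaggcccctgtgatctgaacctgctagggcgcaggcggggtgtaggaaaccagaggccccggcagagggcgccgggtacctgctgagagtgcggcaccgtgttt
Drd2: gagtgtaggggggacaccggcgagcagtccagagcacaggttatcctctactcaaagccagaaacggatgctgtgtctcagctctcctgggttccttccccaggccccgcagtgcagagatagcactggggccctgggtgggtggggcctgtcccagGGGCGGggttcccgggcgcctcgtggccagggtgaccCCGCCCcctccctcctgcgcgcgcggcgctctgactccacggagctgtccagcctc
The Drd5 stretch of 108 bases was 75.9% G or C and held 2 GC boxes, 1 on each strand. The Drd1 stretch of 203 bases was 62.6% G or C and held none, and the Drd2 stretch of 250 bases was 68.8% G or C and held 2. Over the full RefSeq windows, from 250 bases before to 50 after a start, 35.7% of 32851 mouse windows held GGGCGG on either strand and the median G and C content was 52.7%. On this scale Drd1, which has 2 such windows, held 1 GC box in each, and the windows of Drd5 and Drd2 held 2. Of the 9 receptor genes 7 had a window. The other motifs searched on both strands were TGACG (the core of the cAMP response element, in 20.8% of all windows), the E-box CACGTG (7.15%) and TATAAA (13.6%). Adra2a was the only receptor gene with all 4 motifs in a window, Adrb1 had GGGCGG and TGACG, and Adra2c had CACGTG alone. These matches describe letters and not binding.

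Levels are compared between genes per kilobase of merged exons (CPM per kb). In naive libraries of both strains Adra1d was highest, at 31.2 ± 4.20 CPM per kb in AKR and 27.1 ± 0.259 in B6N (SD, n = 4 each), followed by Adrb1, Adra1b, Adra2c, Drd1, Adra2a, Adra1a, Drd2 and Drd5. Adrb1 and Adra1b overlapped in both strains, at 12.9 ± 2.21 and 11.0 ± 1.07 CPM per kb in naive AKR and 10.8 ± 0.801 and 10.7 ± 0.526 in naive B6N. Adra2a overlapped with Adra1a in naive AKR and with Drd1 in naive B6N. The lowest pair differed between the strains: Drd5 stood at 0.142 ± 0.0224 CPM per kb in naive AKR, below every Drd2 value there (0.585 ± 0.119), and at 0.575 ± 0.0687 in naive B6N, where it overlapped with Drd2 (0.650 ± 0.146). By the mean of the OFL libraries Adra1a took the fourth place, where it overlapped with Adra2c in AKR but not in B6N, and Drd2 the last, with Drd5 above it in every library of both strains. The levels are divided by all exonic bases, and 48.6% of those of Drd5 lie under an exon of the other strand. How this overlap affects the place of Drd5 in either condition was not tested.

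**Figure D1:**
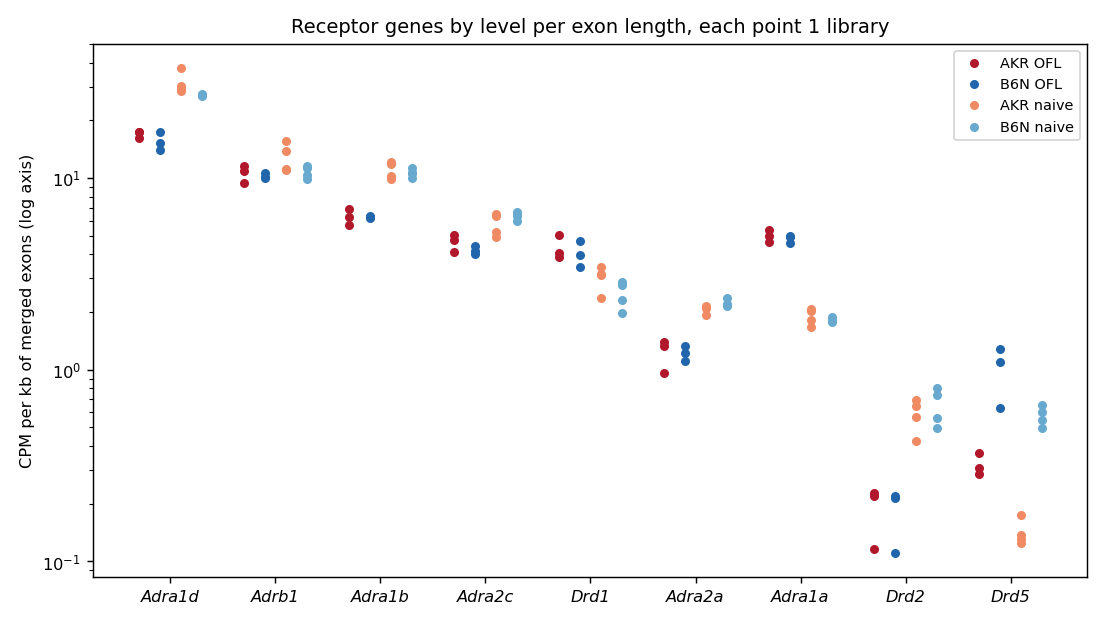
CPM per kb of merged exons, on a log axis, for the 9 receptor genes in order of their naive B6N mean, with each point 1 library and the colours the 4 groups. Adra1d is highest in every group, and at the low end the AKR points of Drd5 lie below the B6N points of the same condition.

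The strain comparison in naive mice asks how receptor transcripts differ between AKR and B6N without conditioning. Drd5, which encodes the D1-class receptor also called D5, had 0.394, 0.551, 0.414 and 0.433 CPM in the naive AKR libraries, against 1.57, 1.89, 2.07 and 1.72 CPM in the naive B6N libraries. Every AKR library was below every B6N library, with 8 to 13 reads in AKR and 40 to 42 in B6N. The log2 difference, AKR minus B6N, was -1.98 (SE 0.21, 95% interval -2.42 to -1.55), 3.95-fold lower in AKR (edgeR adjusted p = 7.4e-07). Of the 17645 genes tested 178 were lower in AKR by more than this. Drd5 entered this tested set through its B6N libraries, the group where it is high, so its rank depends on that filter. In bulk tissue, fewer cells of a type and less RNA per cell cannot be told apart.

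The same gene was lower in AKR in the OFL libraries, which are separate libraries. Drd5 had 0.964, 0.905 and 1.16 CPM in AKR OFL, against 1.99, 4.06 and 3.47 CPM in B6N OFL. The groups did not overlap, although the first B6N library held 29 reads and the other two 58 and 49. The log2 difference was -1.65 (SE 0.28, 95% interval -2.24 to -1.06), 3.13-fold lower in AKR (edgeR adjusted p = 0.00029). Over 15 alternative settings after OFL the difference stayed between -1.90 and -1.43, and over 17 in naive mice between -2.10 and -1.92, with edgeR or DESeq2 adjusted p of at most 0.0052. Summed over a group's libraries, Drd5 had 42 reads in AKR OFL and 136 in B6N OFL, and 39 in naive AKR and 164 in naive B6N.

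**Figure D2:**
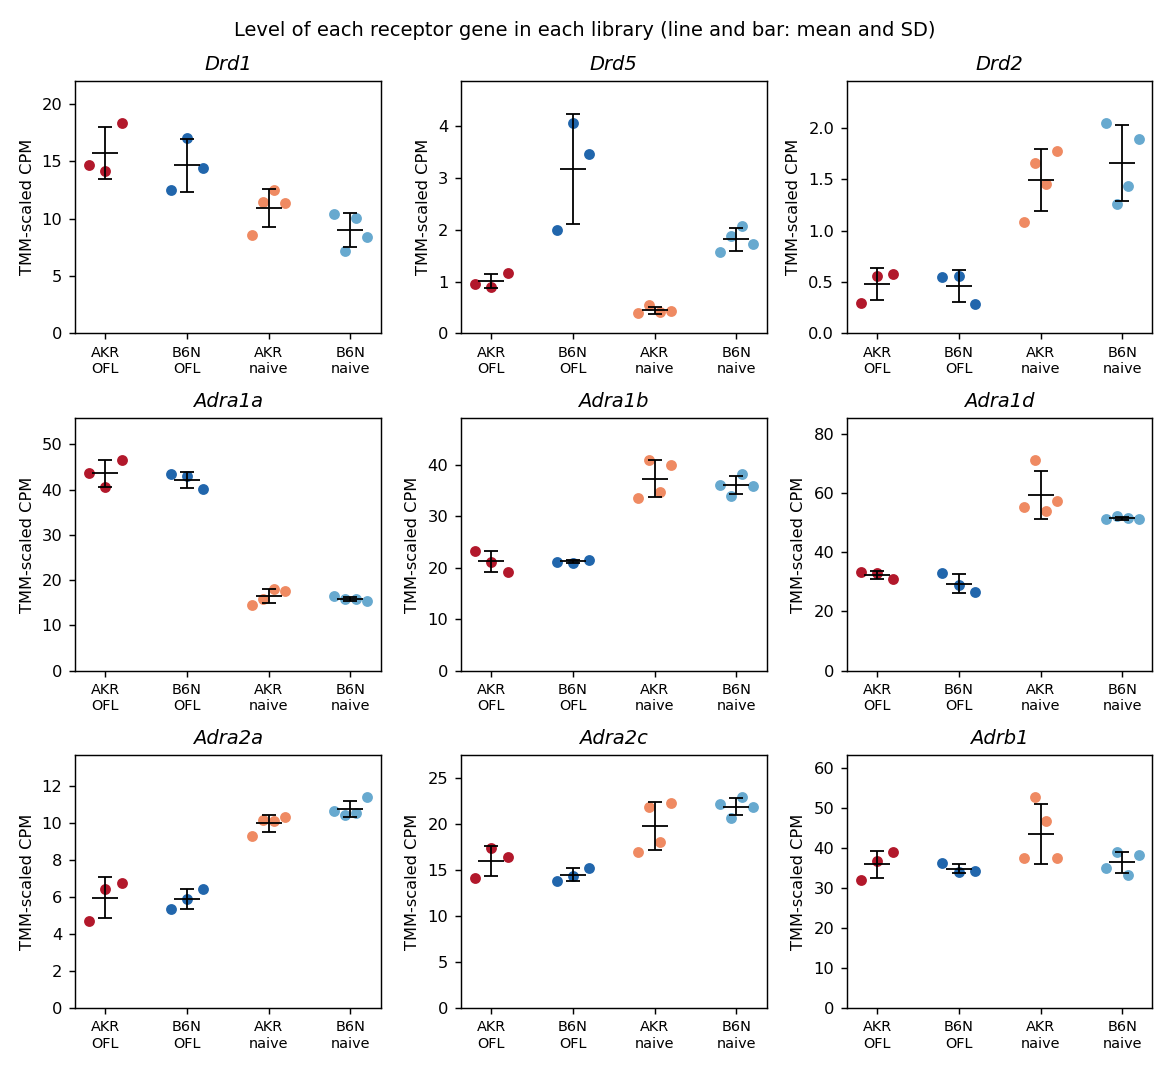
TMM-scaled CPM of each receptor gene in each of the 14 libraries, with 1 panel per gene, the line and bar giving the mean and SD, and the groups from left to right AKR OFL, B6N OFL, naive AKR and naive B6N. In the Drd5 panel the AKR libraries lie below the B6N libraries within each condition, at 0.905 to 1.16 against 1.99 to 4.06 CPM after OFL and 0.394 to 0.551 against 1.57 to 2.07 CPM in naive mice.

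Part of Drd5 lies under a gene of the other strand. The exon of the antisense gene Gm26560 covers 1531 of its 3152 exonic bases (48.6%, chr5:38319367-38320897), including 1232 of the 1434 coding bases. Gm26560 itself had 0 to 2 reads in AKR OFL, 1 to 2 in B6N OFL, 0 to 2 in naive AKR and 2 to 5 in naive B6N, fewer than Drd5 in every library. Whether reads were counted by strand is not given in the sources used here. It is therefore not known whether reads of the shared bases were counted for Drd5, for Gm26560 or for neither. Reads of both strains were aligned to GRCm38, and whether AKR alleles aligned equally well was not tested.

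Markers of several cell types differed between the strains as well. Of 8 deep layer neuron markers 5 were lower and none higher in AKR after OFL, and 3 were lower and none higher in naive mice (edgeR, adjusted p under 0.05), where 8.86% and 19.5% of all tested genes were called lower. Single deep layer markers ran from -0.84 to 0.36 on the log2 scale after OFL and from -0.79 to 0.34 in naive mice. Their summed levels were 268 to 284 CPM in AKR OFL against 325 to 374 in B6N OFL, and 218 to 302 in naive AKR against 285 to 379 in naive B6N, so the strains overlapped in naive mice. Of 7 astrocyte markers 3 were lower and none higher after OFL, and 4 were lower and 1 higher in naive mice. Their summed levels were 4300 to 4441 CPM in AKR OFL against 5061 to 5169 in B6N OFL, and 3415 to 3975 in naive AKR against 3906 to 4229 in naive B6N. Of 7 interneuron markers 4 were higher and none lower after OFL, and 2 were higher and 1 lower in naive mice. Among all tested genes 7.5% were called higher after OFL and 18.3% in naive mice. Summed levels of the interneuron markers were 613 to 652 CPM in AKR OFL against 563 to 585 in B6N OFL. In naive mice they were 871 to 954 CPM in AKR against 837 to 904 in B6N. Of 7 upper layer markers 2 were higher and 1 lower in each comparison. Of 6 endothelial and mural markers 3 were higher and 1 lower after OFL, and 3 were higher and 2 lower in naive mice. Of 5 microglia markers 2 were higher and 1 lower after OFL, and 2 were higher and 2 lower in naive mice. Of 5 oligodendrocyte markers 1 was lower after OFL, and 1 was higher and 1 lower in naive mice. Of 5 oligodendrocyte precursor markers none was called after OFL, and 2 were higher and 1 lower in naive mice. Of the striatal markers 1 of 9 tested was lower after OFL and 4 of 10 were lower in naive mice, with none higher in either. The part of these markers in the Drd5 difference was not tested.

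Drd5 was the only receptor gene called in the same direction in both strain comparisons, so it was the one matched to other genes by the shape of its levels. Among the 12380 genes that averaged 5 CPM or more, and over 14 libraries with each condition's mean subtracted, log2 CPM of Drd5 followed most closely Rpl14, a gene of the large ribosomal subunit (Pearson r = 0.985), Cfap36 (0.979) and Haus2, a gene of the augmin complex of the mitotic spindle (0.979). These 3 genes are also lower in AKR, at -0.40, -0.40 and -0.72 on the log2 scale after OFL and -0.43, -0.45 and -0.74 in naive mice. The points share the libraries, and only each condition's mean was subtracted, so the strain difference stayed in the levels. The matching thus favoured genes that are lower in AKR in both conditions, and their strain differences add no support. Whether the likeness reaches beyond the strain difference was not tested.

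Around Drd5, within 500 kb, 10 other genes were tested after OFL and 11 in naive mice, a set examined after the value of Drd5 was known. In each comparison 3 were lower in AKR, where 8.86% of all tested genes were called lower after OFL and 19.5% in naive mice. Slc2a9, a urate transporter gene, differed by -1.10 after OFL (SE 0.33, edgeR adjusted p = 0.027) and -0.80 in naive mice (SE 0.20, edgeR adjusted p = 0.0044), and Tmem128, a transmembrane protein gene, by -0.63 after OFL (SE 0.10) and -0.58 in naive mice (SE 0.06). The third was Wdr1 (-0.18) after OFL and Nsg1 (-0.09) in naive mice, and the predicted gene Gm42858 was higher in naive AKR at 1.03.

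Of the 9 receptor genes 3 were called in naive mice, 2 higher and 1 lower in AKR, which was near the 37.8% of all tested genes called (18.3% higher and 19.5% lower). Drd5, Adra1d and Adra2a were the 3 receptor genes whose strains did not overlap, against 34.7% of all tested genes. The median log2 difference over the 9 was 0.05, against 0.01 over all genes tested.

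Drd1, the most abundant dopamine receptor gene of these libraries, did not pass in naive mice. It had 8.61, 11.5, 12.5 and 11.3 CPM in naive AKR, against 10.4, 7.20, 10.1 and 8.37 CPM in naive B6N, and the strains overlapped. The log2 difference was 0.28 (SE 0.12, 95% interval 0.03 to 0.53, edgeR adjusted p = 0.069). It passed without naive AKR replicate 1 (0.38, adjusted p = 0.013), without naive B6N replicate 1 (0.37, adjusted p = 0.033) and with no filter on low counts (adjusted p = 0.0051). These replicates 1 also had the lowest summed deep layer markers of naive AKR (218 CPM) and the highest of naive B6N (379 CPM), and the part of these markers in the Drd1 levels was not tested. After OFL Drd1 had 14.7, 14.1 and 18.3 CPM in AKR and 12.5, 17.1 and 14.4 CPM in B6N, with a difference of 0.09 (95% interval -0.16 to 0.34, edgeR adjusted p = 0.68).

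Drd2, the gene of the inhibitory D2 receptor, was near the limit of detection. It had 0.297, 0.557 and 0.582 CPM in AKR OFL and 0.549, 0.560 and 0.283 CPM in B6N OFL, that is 4 to 8 reads in each library of both groups, and it did not reach the filter on low counts there. In naive mice it had 1.08, 1.65, 1.45 and 1.77 CPM in AKR and 2.04, 1.26, 1.43 and 1.89 CPM in B6N. The naive difference was -0.15 with a 95% interval of -0.57 to 0.26 (edgeR adjusted p = 0.58), which does not show that the strains were alike.

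The alpha1 receptor genes encode the Gq-coupled noradrenaline receptors. Adra1d (chr2:131545850-131562283, minus strand) had 55.1, 71.0, 53.7 and 57.1 CPM in naive AKR, against 51.3, 52.2, 51.4 and 51.1 CPM in naive B6N. The B6N libraries lay within about 1 CPM of each other and below every AKR library, of which the second stood well above the rest. The difference was small, 0.21 (SE 0.07, 95% interval 0.07 to 0.35, edgeR adjusted p = 0.022), and 0.11 without naive AKR replicate 2 (edgeR adjusted p up to 0.049 over 17 settings). After OFL Adra1d had 33.1, 33.1 and 30.9 CPM in AKR and 32.9, 28.8 and 26.5 CPM in B6N, and the overlapping groups differed by 0.13 (95% interval -0.03 to 0.29, edgeR adjusted p = 0.30). Of its 1899 exonic bases 147 lie under an exon of the antisense gene Gm14285. That gene had 25 to 29 reads in AKR OFL, 16 to 27 in B6N OFL, 34 to 48 in naive AKR and 29 to 37 in naive B6N. The part of this overlap in the Adra1d levels was not tested.

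The other alpha1 genes did not pass in either strain comparison. Adra1a had 14.6, 15.8, 18.1 and 17.6 CPM in naive AKR and 16.4, 15.9, 15.8 and 15.4 CPM in naive B6N, a difference of 0.06 (95% interval -0.09 to 0.20). Adra1b had 33.6, 40.9, 34.8 and 39.9 CPM in naive AKR and 36.1, 33.9, 38.3 and 35.8 CPM in naive B6N, a difference of 0.05 (95% interval -0.07 to 0.18). The naive groups of both genes overlapped. After OFL the differences were 0.04 for Adra1a (95% interval -0.10 to 0.18) and -0.01 for Adra1b (95% interval -0.18 to 0.17).

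The alpha2 receptor genes, whose receptors couple to inhibitory G proteins, did not pass either. Adra2a had 9.30, 10.2, 10.1 and 10.3 CPM in naive AKR, against 10.6, 10.4, 10.5 and 11.4 CPM in naive B6N. The strains did not overlap, yet the difference was -0.10 (95% interval -0.25 to 0.04, edgeR adjusted p = 0.27). Adra2c, which shares chromosome 5 with Drd5, had 17.0, 21.8, 18.1 and 22.3 CPM in naive AKR and 22.2, 20.6, 22.9 and 21.9 CPM in naive B6N (log2 -0.14, 95% interval -0.30 to 0.02, edgeR adjusted p = 0.17). After OFL the differences were 0.01 for Adra2a (95% interval -0.31 to 0.33) and 0.13 for Adra2c (95% interval -0.07 to 0.34).

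Adrb1, the gene of the beta1 receptor, was higher in naive AKR by the main test, although the strains overlapped. It had 37.3, 52.6, 46.6 and 37.5 CPM in naive AKR, against 34.9, 39.0, 33.3 and 38.2 CPM in naive B6N, so 2 AKR libraries lay above the B6N range and 2 within it. The difference was 0.26 (SE 0.09, 95% interval 0.07 to 0.45, edgeR adjusted p = 0.029). The call ended with DESeq2 (adjusted p = 0.12), without naive AKR replicate 2 (0.15, adjusted p = 0.13) or 3 (adjusted p = 0.081) and without naive B6N replicate 1 (adjusted p = 0.075) or 3 (adjusted p = 0.087). After OFL Adrb1 had 32.0, 36.6 and 38.9 CPM in AKR and 36.1, 34.0 and 34.3 CPM in B6N, a difference of 0.03 (95% interval -0.12 to 0.19).

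After OFL 1 of the 8 receptor genes tested was called, Drd5, against 16.4% of all genes tested (7.5% higher and 8.86% lower). It was also the one receptor gene whose strains did not overlap there, against 31.2% of all genes tested. The median of the 8 was 0.04, against 0.002 over all genes.

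**Figure D3:**
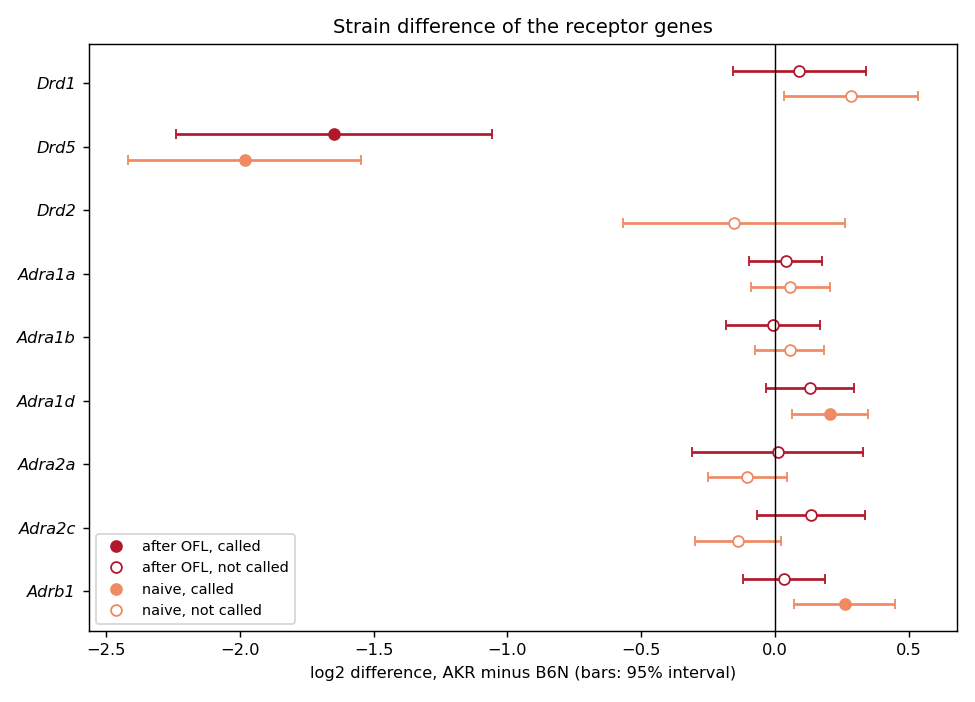
Log2 difference, AKR minus B6N, of the 9 receptor genes after OFL (dark red) and in naive mice (orange), with 95% intervals and filled points for genes called at an adjusted p under 0.05. Drd5 stands at -1.65 after OFL and -1.98 in naive mice, the other genes lie between -0.15 and 0.28, and Drd2 has no value after OFL because it did not pass the filter on low counts.

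The comparison of OFL with naive libraries asks what differs after the conditioning, but condition and deposited library set coincide and cannot be told apart. Most genes were called, 78.7% of those tested in AKR (39.8% higher, 38.8% lower) and 78.4% in B6N (40% higher, 38.4% lower). Of the receptor genes 9 of 9 were called in AKR, 3 higher and 6 lower, and 8 of 9 in B6N, 3 higher and 5 lower, and in each strain 7 of 9 did not overlap, against 76.7% of all genes tested. These shares lie around the background, and nothing is read from them about the receptors.

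Adra1a had the largest difference in the higher direction. It had 43.7, 40.6 and 46.5 CPM in AKR OFL and 14.6 to 18.1 CPM in naive AKR, and 43.4, 43.0 and 40.1 CPM in B6N OFL and 15.4 to 16.4 CPM in naive B6N. The groups did not overlap in either strain, and the log2 differences, OFL minus naive, were 1.40 (SE 0.07, edgeR adjusted p = 2.4e-16) in AKR and 1.41 (SE 0.07, edgeR adjusted p = 2.0e-16) in B6N. None of its exonic bases lies under an exon of the other strand. Library set and conditioning cannot be told apart in the Adra1a difference. Drd1 was higher by 0.52 in AKR (SE 0.13) and 0.70 in B6N (SE 0.13), with no overlap in either strain, and Drd5 by 1.15 (SE 0.34) and 0.81 (SE 0.19), with an overlap in B6N.

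The other alpha1 genes and the alpha2 genes were lower in OFL libraries of both strains. Adra1b had 19.1 to 23.3 CPM in AKR OFL and 33.6 to 40.9 CPM in naive AKR, and 20.9 to 21.5 CPM in B6N OFL and 33.9 to 38.3 CPM in naive B6N (log2 -0.82 and -0.77, SE 0.08 each). Adra1d was lower by 0.88 in AKR and 0.81 in B6N, and Adra2a by 0.74 and 0.87, without overlap. Adra2c was lower by 0.31 in AKR, where the groups overlapped, and by 0.60 in B6N, and the AKR call ended with protein-coding genes only (adjusted p = 0.067). Drd2 was lower by 1.63 (SE 0.32) in AKR and 1.83 (SE 0.31) in B6N. It had 20 reads in all OFL libraries of each strain, against 130 in naive AKR and 153 in naive B6N. With 4 to 8 reads in each OFL library, it entered this fit through its naive libraries, the groups where it is high. Its presence among the tested genes thus depends on them. Adrb1 had a difference of -0.28 in AKR (edgeR adjusted p = 0.0085), and this call was lost with protein-coding genes only (adjusted p = 0.15), without naive AKR replicate 2 (-0.17, adjusted p = 0.062) and without AKR OFL replicate 1 (adjusted p = 0.072). In B6N it stood at -0.06 (edgeR adjusted p = 0.55).

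Beside Drd5, protein-coding genes of which 40% to 60% of the exonic sequence lies under an exon of the other strand (142 genes tested) had a median of 0.61 in both strains, with 93 higher and 24 lower in AKR and 95 higher and 25 lower in B6N. Those with no such base (10407 genes) had a median of -0.20. The share of counts from the mitochondrial genome was 0.752% to 0.785% in AKR OFL and 1.56% to 1.90% in naive AKR, and 0.775% to 0.850% in B6N OFL and 1.62% to 1.78% in naive B6N. The part of these differences between the sets in the receptor values was not tested.

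**Figure D4:**
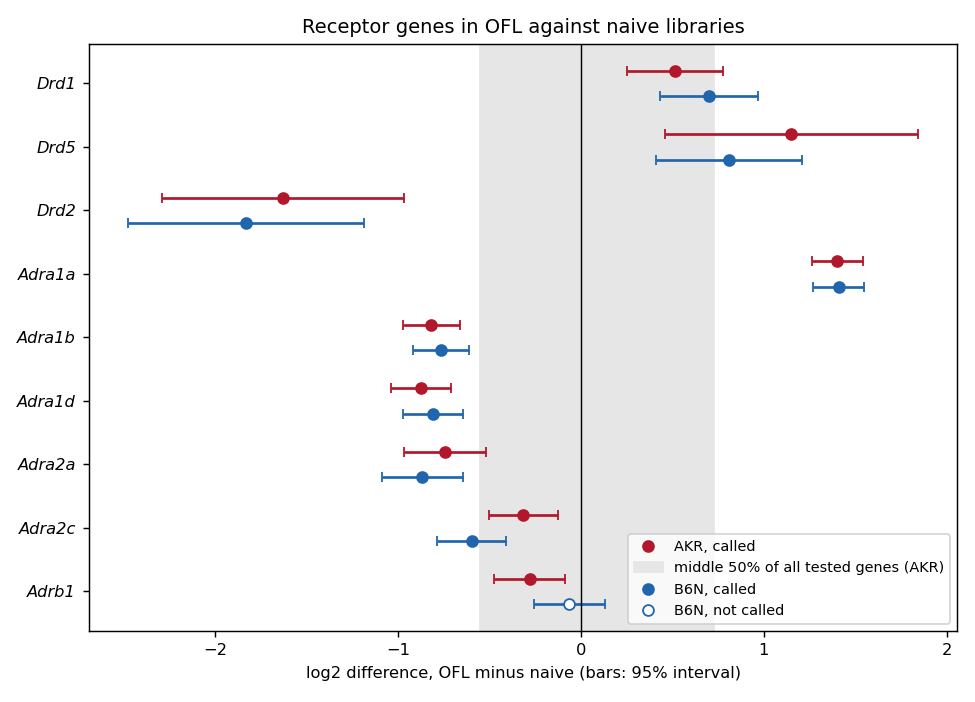
Log2 difference, OFL minus naive, of the 9 receptor genes in AKR (red) and B6N (blue), with 95% intervals, filled points for called genes and a grey band for the middle 50% of all tested genes in AKR, from -0.55 to 0.73. Adra1a (1.40 and 1.41) and Drd5 (1.15 and 0.81) lie right of the band in both strains. Adra1b, Adra1d, Adra2a and Drd2 lie left of it in both, and Adra2c in B6N alone. Drd2 is farthest to the left at -1.63 and -1.83, and it entered the fit through its naive libraries, where it is high. The intervals of the strains overlap for every gene.

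The interaction tests whether the OFL minus naive difference is itself different between the strains. None of the 9 receptor genes was called by edgeR or by DESeq2, against 5.15% of all genes tested with edgeR (3.61% higher and 1.54% lower). Adra2c alone had an unadjusted p under 0.05, with a difference of 0.28 between the strains' differences (95% interval 0.02 to 0.55, edgeR adjusted p = 0.26). The interval for Drd5 ran from -0.44 to 1.12 around 0.34, and that for Adra1a from -0.21 to 0.19 around -0.01.

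The other genes of catecholamine signalling were taken from lists of ligand handling, receptors, G proteins and effectors. Beside the list counts below, 18.3% of all tested genes were called higher and 19.5% lower in naive mice. After OFL these shares were 7.5% and 8.86%. Among the receptor genes outside the 9, Drd3, a D2-class receptor gene, had at most 1 read in any library, Drd4, of the same class, 3 to 22, and the alpha2 receptor gene Adra2b 1 to 6.

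Of the 9 genes of catecholamine synthesis, storage and uptake 5 were tested in naive mice, of which 2 were higher and 1 lower in AKR, and 4 were tested after OFL. None of these 4 was called by edgeR or DESeq2, and 2 had an unadjusted edgeR p under 0.05. Slc22a3, which encodes the low-affinity monoamine transporter OCT3, had 3.40, 3.60, 3.21 and 3.29 CPM in naive AKR, against 1.53, 1.40, 1.23 and 1.85 CPM in naive B6N. Its naive libraries did not overlap (log2 1.16, SE 0.14, edgeR adjusted p = 6.2e-06), while after OFL the difference was 0.36 (SE 0.32, edgeR adjusted p = 0.51), and the interaction was not called (edgeR adjusted p = 0.23). Ddc, the aromatic amino acid decarboxylase gene, was lower in naive AKR (-0.42, edgeR adjusted p = 0.012). Th, the tyrosine hydroxylase gene, stood at 1.80 ± 0.141 CPM in naive AKR and 1.28 ± 0.157 in naive B6N (SD, n = 4 each; log2 0.50, edgeR adjusted p = 0.023), and its call ended with DESeq2 (adjusted p = 0.10), with all 14 libraries in 1 fit (edgeR adjusted p = 0.071) and without any of 4 libraries (naive AKR replicate 3 or 4, naive B6N replicate 1 or 4).

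The monoamine oxidases, which break down catecholamines, are encoded by a pair of genes, both called in naive mice. Maob had 22.1, 21.2, 18.7 and 22.5 CPM in naive AKR, against 29.9, 28.9, 31.9 and 31.0 CPM in naive B6N, and its log2 difference was -0.52 (SE 0.06, edgeR adjusted p = 2.0e-06). It was lower after OFL too, at 12.1, 10.9 and 10.8 CPM in AKR against 17.8, 19.0 and 20.0 CPM in B6N (log2 -0.76, SE 0.09, edgeR adjusted p = 7.4e-06). The strains did not overlap in either condition. Maoa, its neighbour on chromosome X, was instead higher in naive AKR (0.30, SE 0.05, edgeR adjusted p = 8.9e-05) and stood at -0.03 after OFL (edgeR adjusted p = 0.85).

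**Figure D5:**
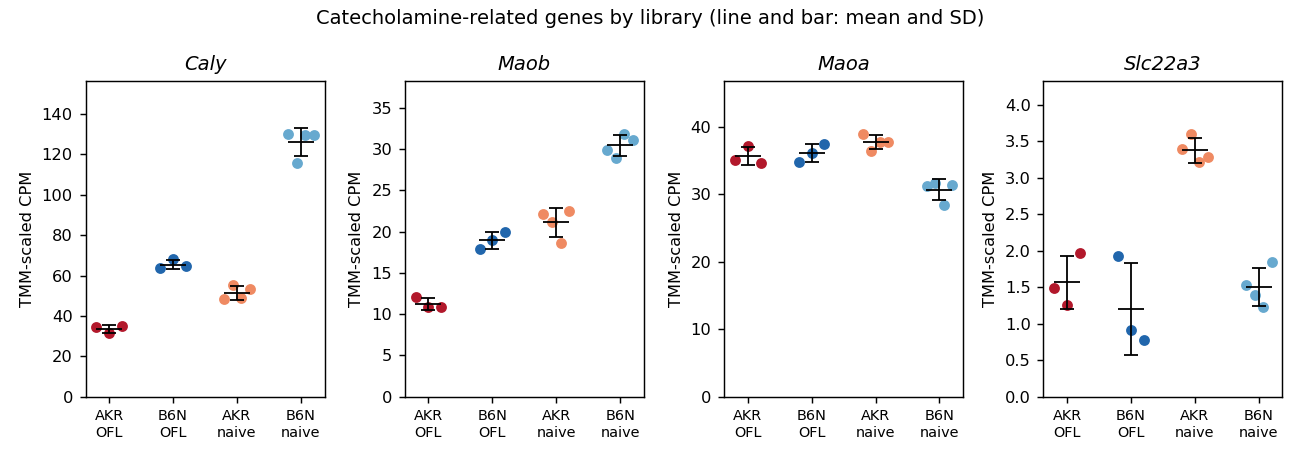
TMM-scaled CPM of 4 genes around the receptors in each library, with the line and bar giving the mean and SD and the groups from left to right AKR OFL, B6N OFL, naive AKR and naive B6N. Caly and Maob are lower in AKR in both conditions, at -0.97 and -0.76 on the log2 scale after OFL and -1.29 and -0.52 in naive mice, while Maoa and Slc22a3 are higher in naive AKR by 0.30 and 1.16.

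Among 5 receptor-associated proteins Caly had the largest strain difference. It encodes calcyon, a neuronal vesicle protein first described as a partner of the D1 receptor. Caly had 48.3, 55.5, 49.0 and 53.3 CPM in naive AKR, against 130.2, 116, 129.6 and 129.4 CPM in naive B6N, and 34.4, 31.5 and 35.2 CPM in AKR OFL, against 63.6, 68.1 and 64.6 CPM in B6N OFL. No AKR library reached a B6N library of its condition, and the differences were -1.29 (SE 0.05, edgeR adjusted p = 1.5e-12) and -0.97 (SE 0.06, edgeR adjusted p = 8.2e-10). Akap5, which anchors protein kinase A at synapses, was lower in both conditions as well, by log2 differences of -0.21 after OFL and -0.30 in naive mice. Counted over the list, 1 gene was higher and 2 were lower in AKR after OFL, and 2 were lower in naive mice, the higher one being the calcium sensor gene Ncs1 (0.18 after OFL, edgeR adjusted p = 0.0044).

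Downstream, small differences ran both ways. Of 9 tested G protein alpha subunits 1 was higher and 2 lower in naive AKR, with Gnao1 at -0.16, and none was called after OFL by edgeR or DESeq2, where 2 had an unadjusted edgeR p under 0.05 and the smallest belonged to Gnas (0.10, edgeR adjusted p = 0.080). The higher count in naive mice ran from 0 to 2 when naive AKR replicate 1, 3 or 4 or naive B6N replicate 1 was left out. Of 8 adenylyl cyclase genes 1 was higher and 2 lower in naive mice, and 1 higher and 1 lower after OFL. The lower count in naive mice fell to 1 without naive AKR replicate 4 or naive B6N replicate 1 or 3. Its highest value with 1 library left out was 3. The lower one after OFL, Adcy2, lost its call with DESeq2 (adjusted p = 0.067), upper-quartile scaling, no filter on low counts or the replicate block, and without any AKR OFL library or without B6N OFL replicate 2 or 3 (edgeR adjusted p up to 0.16). The higher one was Adcy7 in both, at 25.9 ± 0.663 CPM in naive AKR and 18.4 ± 1.22 in naive B6N (SD, n = 4 each; log2 0.50, edgeR adjusted p = 2.0e-06), and by 0.59 after OFL (edgeR adjusted p = 0.00010). Of 8 genes of protein kinase A and DARPP-32 3 were higher in naive AKR, and 1 was lower with DESeq2 or without replicate 2 of naive AKR or of naive B6N. After OFL none was called by edgeR or DESeq2, and 6 had an unadjusted edgeR p under 0.05. Prkar2b, a regulatory subunit gene, stood at 0.19 after OFL (edgeR adjusted p = 0.051) and 0.30 in naive mice (edgeR adjusted p = 8.0e-06). Its OFL difference passed in 6 alternatives, namely upper-quartile scaling, no filter on low counts, the replicate block, all 14 libraries in 1 fit, and without AKR OFL replicate 1 or B6N OFL replicate 3, with edgeR adjusted p of 0.012 to 0.038. Over the alternatives after OFL up to 2 genes of the list were called higher and up to 2 lower, the lower calls reaching 2 without B6N OFL replicate 1.

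Of 8 genes of phospholipase C beta and protein kinase C 2 were higher and 3 lower in naive AKR, and 1 was lower after OFL. The higher count fell to 1 without naive AKR replicate 3 or 4 or naive B6N replicate 3 or 4, and the call after OFL was lost with DESeq2, upper-quartile scaling or all 14 libraries in 1 fit, and without AKR OFL replicate 1 or 2 or B6N OFL replicate 2 or 3. Prkca, a conventional protein kinase C gene, stood at -0.23 on the log2 scale in naive mice. Of 7 phosphodiesterase genes 1 was higher and 1 lower in naive AKR, and 2 were higher and 1 lower after OFL. Without naive AKR replicate 3 the lower count in naive mice was 2, and after OFL the higher count was 1 without AKR OFL replicate 3 or B6N OFL replicate 2, and the lower count 2 without AKR OFL replicate 3. Pde4d was higher in both, by 0.23 after OFL and 0.24 in naive mice. Pde10a, known from striatal neurons, stood at 0.11 after OFL (edgeR adjusted p = 0.13) and was lower in naive AKR at -0.43 (edgeR adjusted p = 0.00016). Of 13 receptor kinases, arrestins and RGS proteins 2 were higher and 3 lower in naive AKR, and 1 was higher and 2 lower after OFL. Grk5, a kinase that phosphorylates active receptors, was higher in both (0.48 after OFL and 0.51 in naive mice), and Grk3, a kinase of the same family recruited by G protein beta-gamma subunits, was lower in both (-0.20 after OFL and -0.27 in naive mice). Over all these lists the share called was not compared with chance, and the share of all tested genes called was 16.4% after OFL and 37.8% in naive mice.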

How the data were processed

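Total RNA of cingulate cortex was extracted with Trizol and made into libraries with 1 TruSeq kit for all samples, per the labels' protocols. Per the submitters' processing notes reads were handled with cutadapt 2.7, TopHat2 2.1.1, CASAVA, HTSeq and edgeR on build GRCm38; the annotation release and the strand setting of counting are not given in the sources used here. The authors deposited raw counts per Ensembl gene in a table for naive and a table for OFL libraries, and these were analysed here. Per-sample CPM values were deposited as well. Dividing these by the value of 1 read gave whole reads within 0.1 read for 100% of 748510 values, and none differed from the count tables, so a count test on them called 6668 genes in naive mice and 2943 after OFL.

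Differences were tested with edgeR 4.0.16 (R 4.3.3, limma 3.58.1; quasi-likelihood F-test, two-sided, TMM, filterByExpr with a minimum of 10 reads, Benjamini-Hochberg over all genes tested, called at an adjusted p under 0.05). Strains were compared within naive and within OFL libraries, and the OFL minus naive differences and the interaction came from 1 fit of all 14. edgeR's common coefficient of variation was 0.0446 over naive and 0.0456 over OFL libraries. Drd5 passed the filter in naive mice on its B6N libraries, since its AKR libraries held about the minimum. Symbols, exons and neighbours came from GENCODE for GRCm38 and promoter windows from RefSeq for GRCm38.p6. Alternatives (DESeq2 1.42.0, other scalings and filters, protein-coding genes, recovered reads, a replicate block, leaving out each library) are in the closing section. All 9 receptor genes were named, and from each pathway list up to 3 called genes with the smallest p in each strain comparison were eligible, or the 1 with the smallest p where none was called; not all are printed. For likeness the 3 genes with the highest correlation were taken. The receptor genes, the lists and the rule were chosen with earlier results of these data known. Some genes of the lists are not reported here. The test was checked on simulated counts, with changes placed only in genes of higher counts. That check does not cover genes with as few reads as Drd5 and Drd2.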

Additional observations from a re-analysis of the deposited data

Results flagged for a closer look

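None of the 9 receptor genes met a rule for a closer look, whether by a naive library far from its group or by a called interaction. The OFL groups, with 3 libraries each, were not examined for such libraries. Among the other genes named, the OFL minus naive difference itself differed between AKR and B6N for 4. On the log2 scale and as AKR minus B6N it was 0.555 for Pde10a (edgeR adjusted p = 0.00097), 0.332 for Caly (edgeR adjusted p = 0.016), 0.241 for Ncs1 (edgeR adjusted p = 0.011) and -0.313 for Maoa (edgeR adjusted p = 0.016). The Caly call was lost without replicate 1 (adjusted p = 0.055) or 3 (adjusted p = 0.061) of AKR OFL, and the Maoa call without B6N OFL replicate 3 (adjusted p = 0.054). In 3 of 82 naive groups of 4 libraries examined, 1 library lay far from the others, where chance gives about 1 in 20. These were the lowest naive B6N library of Caly (116 CPM), the lowest naive B6N library of Maoa (28.4 CPM) and the highest naive AKR library of Adcy9 (85.4 CPM), each by Dixon's 95% criterion.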

How the results depend on the processing

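The Drd5 strain difference in both conditions and the Adra1d difference in naive mice kept their direction and their call under each alternative run. Of the counts over all genes and over the 9 receptor genes, 1 moved by more than 1.5 times: 1934 genes were called after OFL without B6N OFL replicate 2, against 2943 with all libraries. Leaving out each library in turn gave 1934 to 3514 called genes after OFL, 5680 to 6747 in naive mice and 732 to 1273 for the interaction, and the receptor genes called were 2 to 4 in naive mice and 1 after OFL. Counts of the short pathway lists moved more often, since 1 gene can change them by that much. Over all pathway lists 4 to 8 genes were higher and 6 to 10 lower after OFL, and 11 to 15 higher and 12 to 18 lower in naive mice, with 1 library left out. The sign of some uncalled values turned. Leaving out each library, the AKR minus B6N difference after OFL ran from -0.035 to 0.21 for Drd1, -0.010 to 0.087 for Adra1a, -0.079 to 0.058 for Adra1b, -0.092 to 0.15 for Adra2a, -0.029 to 0.11 for Adrb1 and -0.061 to 0.0056 for Maoa. The interaction ran from -0.048 to 0.44 for Drd2, -0.061 to 0.041 for Adra1a, -0.12 to 0.016 for Adra1b and -0.14 to 0.035 for Adra1d. Adra1b after OFL was also 0.00025 with all 14 libraries in 1 fit, and Adrb1 in B6N was 0.070, OFL minus naive, with protein-coding genes only. The cause of these turns was not tested. Drd2 after OFL had a value only with no filter (0.039, edgeR adjusted p = 0.99) or with all 14 libraries in 1 fit (0.047, edgeR adjusted p = 0.97), on 4 to 8 reads a library.

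Deviations of same-numbered libraries from their group means had correlations of -0.043 to 0.044. With so few libraries in a group, these values cannot settle whether the numbers pair the libraries. The main tests did not use the numbers. With the replicate block 6229 genes and 3 receptor genes were called in naive mice, 3021 and 1 after OFL, 15766 and 9 for OFL minus naive in AKR, 15722 and 8 in B6N, and 1013 and 0 for the interaction.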

Other observations

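Slc18a2, the gene of the vesicular monoamine transporter that loads dopamine and noradrenaline into vesicles, was chosen here after its values were seen. It had 1 read in each of the 3 AKR OFL libraries against 102, 118, 103 and 108 reads in naive AKR, and 0, 4 and 0 reads in B6N OFL against 149, 128, 103 and 131 reads in naive B6N. Of its 5225 exonic bases 111 lie under an exon of the other strand. Condition and library set coincide here as well and cannot be told apart.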
